A study of Homo sapiens with 4 samples.

Results

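The genes described here are 10 transcription factors and surface markers of the hemato-endothelial lineage: the factors TAL1, LYL1, LMO2, ETV2, FLI1, ERG and RUNX1, and the markers CDH5, PECAM1 and CD34. They were chosen by symbol, each had 1 row, and together they are 10 of the 58365 gene rows in the expression table. H1 cells, a line of human embryonic stem cells, were differentiated for 2 days in Custom mTeSR1 medium with activin A and BMP4, which start mesoderm formation, and all 4 libraries received both factors. The labels give 40 ng/ml activin A and 50 ng/ml BMP4, whereas the methods of the study give the same amounts the other way round. The DMSO group (2 libraries, replicates 1 and 2) received the solvent that the titles name, and the IWP2 group (2 libraries, replicates 1 and 2) received IWP2, a Porcupine inhibitor that blocks the secretion of Wnt ligands; its dose is not given in the sources used here. All libraries come from a single cell line, and no label says whether the replicates were separate cultures, so the p-values measure only the spread between these libraries. Expression is in FPKM, fragments divided by gene length and library depth. The comparison asks how blocking Wnt secretion changes the earliest blood and endothelial genes.

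As background, blood and endothelium arise from a common mesodermal precursor. ETV2, an ETS factor, opens the program, and TAL1 or its close relative LYL1, both basic helix-loop-helix factors, bind DNA with an E-protein and are joined to GATA factors through LMO2 and LDB1. The ETS factors FLI1 and ERG sustain endothelial and blood progenitor genes, and RUNX1 with its partner CBFB is needed for blood cells to emerge from hemogenic endothelium. CDH5 (VE-cadherin) and PECAM1 (CD31) are junction proteins of endothelial cells, and CD34 is a sialomucin of endothelium and blood progenitors.

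At day 2 these genes were divided in level. LYL1, RUNX1, CD34 and ETV2 exceeded 1 FPKM in both DMSO libraries, and CD34 and ETV2 did so in both IWP2 libraries too. TAL1, LMO2, FLI1, ERG, CDH5 and PECAM1 were under 1 FPKM in all 4 libraries, the limit used here for not yet expressed. The limit is one of level and not of detection: on a TPM scale LMO2 exceeded 1 in both DMSO libraries and FLI1 in DMSO replicate 1, and FLI1 had up to about 112 and 49.0 fragments in the DMSO libraries. With IWP2, LYL1 was 10.03-fold lower (3.84 ± 0.06 FPKM in DMSO against 0.383 ± 0.041, SD, n = 2 each) and RUNX1 was 8.69-fold lower (2.43 ± 0.114 against 0.280 ± 0.0995 FPKM, SD, n = 2 each), and both passed the test across all genes. CD34, ETV2 and LMO2 had lower values with IWP2 but did not pass it, and the remaining 5 genes lay under the filter on low values. LYL1 and RUNX1 met that filter, a mean of at least 0.5 FPKM over the 4 libraries, through their DMSO values alone. Without the filter RUNX1 was not called.

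**Figure D1:**
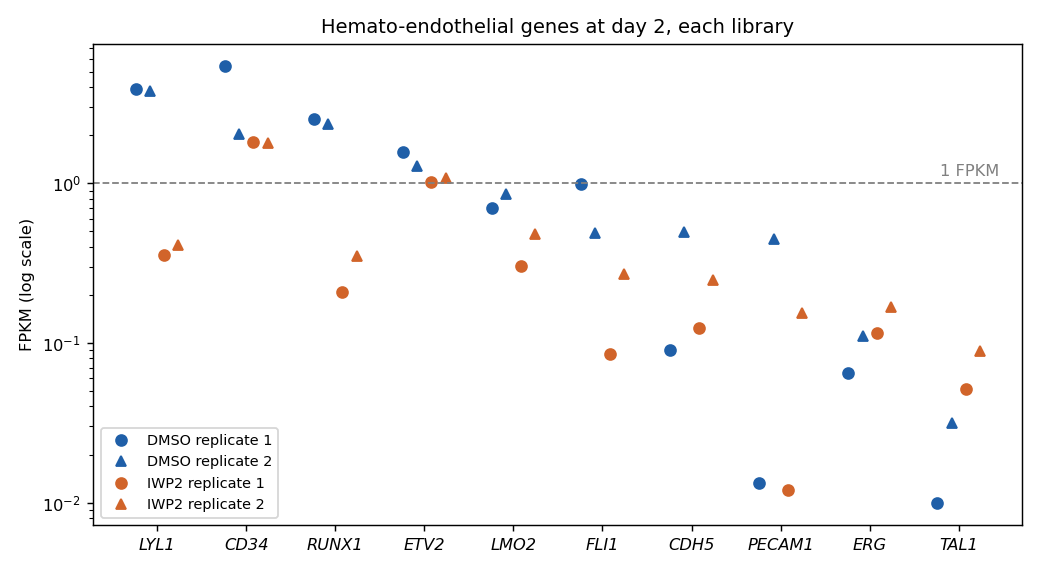
FPKM (log scale) of the 10 genes in each library, ordered by their mean in DMSO; blue is DMSO, orange IWP2, circles are replicate 1, triangles replicate 2, and the dashed line marks 1 FPKM. LYL1 and RUNX1 lie above the line in both DMSO libraries and well below it in both IWP2 libraries, whereas PECAM1 and CDH5 separate the replicate numbers more than the groups.

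The genomic windows before the start sites of the 2 genes that fell, LYL1 and RUNX1, and of ETV2, which was not called, are given here to show what sequence lies there. Each is 250 bases long, ends just before a start site of the gene in RefSeq (GRCh38.p14) and is written 5′ to 3′ on the strand of the gene. Capitals mark the ETS core GGAA and the GATA motif GATAA on either strand, so that TTCC and TTATC are their reverse complements. The LYL1 window is chr19:13102859-13103108 (minus strand), the RUNX1 window chr21:34888700-34888949 (minus strand) and the ETV2 window chr19:35641495-35641744 (plus strand). The LYL1 and RUNX1 windows lie inside the loci of the expression table, which start further upstream than these RefSeq starts. The RUNX1 window lies far inside its locus, whose 5′ end is at 36004667. It shows a single start site of a gene with alternative promoters.
LYL1: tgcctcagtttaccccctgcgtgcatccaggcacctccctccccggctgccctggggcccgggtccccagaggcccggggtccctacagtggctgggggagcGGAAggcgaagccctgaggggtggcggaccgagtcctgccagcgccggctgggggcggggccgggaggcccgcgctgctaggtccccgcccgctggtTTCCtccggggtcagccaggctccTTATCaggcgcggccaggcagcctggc
RUNX1: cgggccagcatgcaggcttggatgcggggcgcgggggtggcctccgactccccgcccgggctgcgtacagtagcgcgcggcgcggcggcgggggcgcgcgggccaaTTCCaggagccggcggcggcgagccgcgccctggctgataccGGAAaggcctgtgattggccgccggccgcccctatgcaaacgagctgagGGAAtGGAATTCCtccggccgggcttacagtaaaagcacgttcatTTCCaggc
ETV2: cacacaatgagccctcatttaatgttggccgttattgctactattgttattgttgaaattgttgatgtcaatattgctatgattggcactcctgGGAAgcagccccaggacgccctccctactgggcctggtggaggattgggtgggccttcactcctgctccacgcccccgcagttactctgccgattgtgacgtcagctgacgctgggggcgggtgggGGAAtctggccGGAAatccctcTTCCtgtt
The LYL1 window held 2 ETS cores and 1 GATA motif, the RUNX1 window held 6 ETS cores (2 of them adjacent on opposite strands) and no GATA motif, and the ETV2 window held 4 ETS cores and no GATA motif. An ETS core was present in 92.7% and the GATA motif in 20.4% of the 35116 windows of the same length. The TCF/LEF motif CTTTGA was in none of these 3 windows and in 11.2% of all windows, and the RUNX motif TGTGGT was likewise in none of the 3 and in 11% of all. The E-box CANNTG was in the ETV2 window alone of the 3, and in 61.8% of all windows. GC content was 75.2% for LYL1, 71.2% for RUNX1 and 54.8% for ETV2, against a median of 58.0%. These matches describe letters and are not evidence of binding. Start-site windows were matched for 6 of the 10 genes.

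The basic helix-loop-helix factors came apart. LYL1 (chr19:13099033-13103161, minus strand) measured 3.88 and 3.80 FPKM in the DMSO libraries and 0.353 and 0.412 FPKM in the IWP2 libraries. The DMSO values differed by little and lay far above both IWP2 values. On the scale of log2(FPKM + 1), which understates changes of low genes, LYL1 fell by 1.81 (SE 0.15, limma adjusted p = 0.00405). TAL1 (chr1:47216290-47232220, minus strand) measured 0.00994 and 0.0315 FPKM in DMSO and 0.0515 and 0.0894 FPKM with IWP2. From the depth and the length of its longest transcript these values correspond to about 1, 3, 6 and 9 fragments, so the order of the groups rests on a handful of fragments, and no fold is given. Of this related pair of factors LYL1 was therefore the measured one at day 2, at a mean of 3.84 FPKM in DMSO beside 0.0207 FPKM for TAL1.

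LMO2 (chr11:33858576-33892289, minus strand), the LIM-only adaptor of the TAL1 complex, measured 0.701 and 0.861 FPKM in DMSO and 0.305 and 0.483 FPKM with IWP2. The groups did not overlap, but the estimated difference was -0.36 on the log2(FPKM + 1) scale (SE 0.19, limma adjusted p = 0.296, 95% interval -0.84 to 0.13). LMO2 thus lay below 1 FPKM throughout and its difference did not pass the test.

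RUNX1 (chr21:34787801-36004667, minus strand) measured 2.51 and 2.35 FPKM in DMSO and 0.210 and 0.350 FPKM with IWP2. Both IWP2 values lay far below both DMSO values. RUNX1 fell by 1.43 on the log2(FPKM + 1) scale (SE 0.17, limma adjusted p = 0.00942). The locus spans 1216867 bases with alternative promoters that gene-level values do not separate, and 7 other gene models overlap it. The highest of those in any library was a pseudogene, EZH2P1, at 1.03 FPKM in DMSO replicate 1 and 0 in the other libraries. RUNX1 and LYL1 were called lower, 2 of the 5 genes tested among the 10, and none was called higher. The untested genes could not be called. Over all 15980 genes tested, 7.35% were called lower, 5.81% higher and 13.2% in either direction. The excess of lower calls turned round after median centring, with 1023 genes lower and 1088 higher beside 1175 and 929. Both directions held when any library was left out, but the calls did not. The RUNX1 call was lost without any 1 library (adjusted p = 0.0566 without DMSO replicate 1, 0.0509 without DMSO replicate 2, 0.101 without IWP2 replicate 1 and 0.0805 without IWP2 replicate 2). The LYL1 call held without either DMSO library (limma adjusted p = 0.0380 and 0.0346) and was lost without IWP2 replicate 1 (0.0731) or IWP2 replicate 2 (0.0624). In these fits the single library left in a group was assumed to vary like the other group.

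The ETS factors were low. ETV2 (chr19:35641745-35644871, plus strand) measured 1.56 and 1.28 FPKM in DMSO and 1.01 and 1.07 FPKM with IWP2. The IWP2 libraries were lower without overlap, by 0.24 on the log2(FPKM + 1) scale, and the difference did not pass the test (estimate -0.24, SE 0.17, limma adjusted p = 0.408, 95% interval -0.68 to 0.19). ETV2 was thus detected in both groups near 1 FPKM, which for its longest transcript of 1571 bases corresponds to about 34.0 to 51.8 fragments per library. FLI1 (chr11:128686535-128813267, plus strand) measured 0.990 and 0.486 FPKM in DMSO and 0.0853 and 0.271 FPKM with IWP2. It was higher in both DMSO libraries, 4.14-fold by the means, but the DMSO libraries themselves differed 2.04-fold. FLI1 lay just under the filter, and in the fit without a filter its difference was -0.55 (SE 0.20, limma adjusted p = 0.282). ERG (chr21:38380027-38661780, minus strand) measured 0.0650 and 0.111 FPKM in DMSO and 0.115 and 0.167 FPKM with IWP2. These values correspond to at most about 6.9 to 17.0 fragments, and the nearest values of the groups almost touch.

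CD34 (chr1:207880972-207911402, minus strand) measured 5.43 and 2.04 FPKM in DMSO and 1.81 and 1.79 FPKM with IWP2. DMSO replicate 1 stood alone at 2.67-fold the level of DMSO replicate 2, which was close to both IWP2 libraries. The difference of -0.66 on the log2(FPKM + 1) scale (SE 0.37, limma adjusted p = 0.316, 95% interval -1.60 to 0.28) therefore rests on 1 library: it was -0.12 without DMSO replicate 1 (adjusted p = 0.682) and -1.20 without DMSO replicate 2 (limma adjusted p = 0.0487). Both IWP2 values lay below both DMSO values in 6 of the 10 genes (LYL1, RUNX1, CD34, ETV2, LMO2 and FLI1) and above them in TAL1 and ERG; of the 28917 genes above 0 in any library, tested or not, 24% showed the lower and 21.9% the higher pattern. An exact permutation test of 2 against 2 libraries cannot give a two-sided p below 0.333, which is what each of these genes had.

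**Figure D2:**
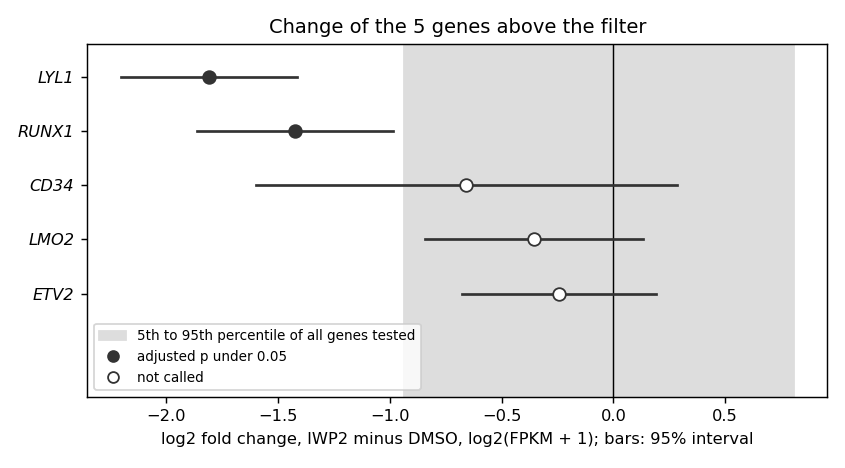
log2 fold change (IWP2 minus DMSO, log2(FPKM + 1) scale) of the 5 genes above the filter with 95% intervals; filled points had an adjusted p under 0.05 and the grey band spans the 5th to the 95th percentile of all genes tested (-0.94 to 0.81). LYL1 (-1.81) and RUNX1 (-1.43) lie left of the band, and the intervals of CD34, LMO2 and ETV2 include 0.

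The endothelial junction genes PECAM1 and CDH5 differed between the replicate numbers in both groups. PECAM1 (chr17:64319415-64413776, minus strand) measured 0.0133 and 0.447 FPKM in the DMSO libraries and 0.0120 and 0.154 FPKM in the IWP2 libraries. Replicate 1 of both groups was thus at no more than about 1.9 fragments, and replicate 2 of both groups was higher, at up to about 57.5 and 21.3 fragments; no fold is given from so few. CDH5 (chr16:66366622-66404786, plus strand) measured 0.0903 and 0.492 FPKM in DMSO and 0.124 and 0.249 FPKM with IWP2. It too was higher in replicate 2 of each group. The groups overlapped for both genes, with two-sided exact permutation p-values of 0.667 for PECAM1 and 1.00 for CDH5. In the list of 23 other endothelial genes, 4 had both replicate 2 libraries above both replicate 1 libraries, which is 17.4% beside 12.2% of all genes above 0 in any library. They were PLVAP, a protein of endothelial fenestrae, EMCN, a sialomucin of veins and capillaries, and the endothelial genes ECSCR and MMRN2. PLVAP was listed at 0 in replicate 1 of both groups and at 2.17 and 1.21 FPKM in replicate 2 of DMSO and IWP2. EMCN was likewise listed at 0 in both replicate 1 libraries and at 0.135 and 0.0778 FPKM in the replicate 2 libraries. The opposite order held for 2 genes of the list, FLT4 and ROBO4, which is 8.7% beside 9.82% of all genes above 0, so that the list as a whole was near the shares of all genes in both directions. These 6 genes were singled out after their values were seen. What the replicate numbers stand for is not given, and the source of the difference was not tested.

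**Figure D3:**
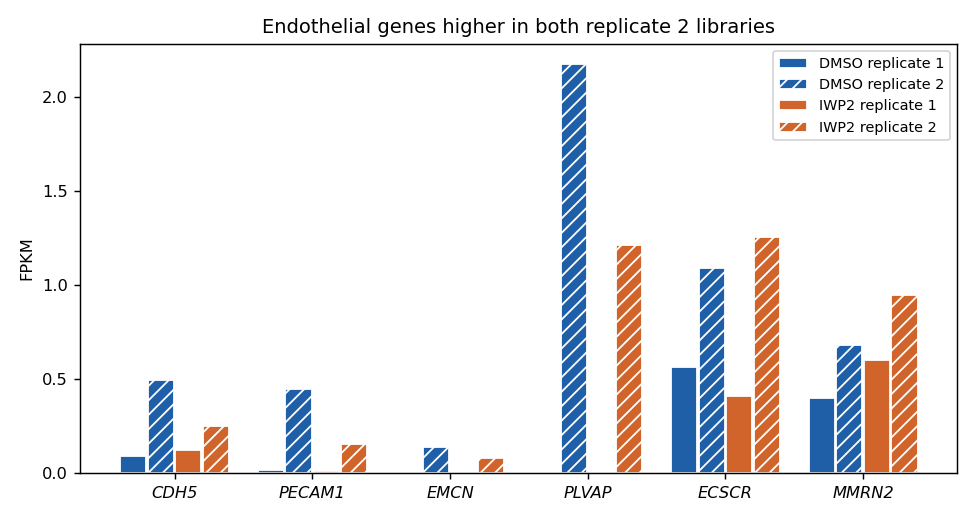
FPKM (linear axis from 0) of the 6 endothelial genes that were higher in both replicate 2 libraries; plain bars are replicate 1, hatched bars replicate 2, blue DMSO and orange IWP2. PLVAP and EMCN are at 0 in replicate 1 of both groups, and PECAM1 reaches 0.447 and 0.154 FPKM in replicate 2 of DMSO and IWP2.

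In DMSO the order of the means was LYL1 (3.84 FPKM), CD34 (3.73), RUNX1 (2.43), ETV2 (1.42), LMO2 (0.781), FLI1 (0.738), CDH5 (0.291), PECAM1 (0.230), ERG (0.0880) and TAL1 (0.0207). CD34 cannot be placed against LYL1 or RUNX1, since its 2 libraries lie on either side of both. RUNX1 and ETV2 differed beyond their spread, as did ETV2 and LMO2, whereas LMO2 overlapped FLI1, FLI1 overlapped CDH5, and CDH5, PECAM1 and ERG overlapped each other. With IWP2 the order changed: CD34 (1.80 FPKM) and ETV2 (1.04) led, and LMO2 (0.394), LYL1 (0.383), RUNX1 (0.280), CDH5 (0.186) and FLI1 (0.178) followed, ahead of ERG (0.141), PECAM1 (0.0830) and TAL1 (0.0704). CD34, ETV2 and LMO2 were apart from each other beyond their spread. LMO2 overlapped LYL1, and from RUNX1 down each gene overlapped the next, so most of this order is within the spread. The boundary of 1 FPKM is close for FLI1, whose highest value was 0.990, and for ETV2, whose lowest was 1.01. On a TPM scale LMO2 exceeded 1 in both DMSO libraries (up to 1.40) and FLI1 in DMSO replicate 1 (1.51), and TAL1, ERG, CDH5 and PECAM1 stay below it in every library. As a yardstick for silent genes, 11 of 12 genes of unrelated mature tissues were under 1 FPKM in all libraries and 8 were listed at 0 in all. The highest of those 11, the sperm protamine PRM1, ranged from 0 to 0.336 FPKM, a range that contains every TAL1 and ERG value, and the lens crystallin CRYGD was the exception at 2.15 to 2.96 FPKM. Below 1 FPKM a gene is thus described as low and not as absent. Above 1 FPKM, a level alone does not show that a lineage program is on, since CRYGD exceeded ETV2 in every library.

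Several partners of these factors were well expressed, and 5 of the 24 in the fixed list were under 1 FPKM in all libraries. TCF3, the main E-protein partner of TAL1 and LYL1, measured 160 and 160 FPKM in DMSO and 164 and 152 FPKM with IWP2, and LDB1, which links LMO2 complexes, 50.5 and 49.8 against 54.6 and 49.8 FPKM. Neither differed beyond the spread (limma adjusted p = 0.931 and 0.729). CBFB, the partner of RUNX1, measured 48.4 and 48.9 FPKM in DMSO and 33.2 and 39.9 FPKM with IWP2, a difference that did not pass the test (-0.41, SE 0.11, limma adjusted p = 0.0800). GATA2, the GATA factor of early progenitors, measured 14.9 and 22.6 against 11.3 and 9.74 FPKM (-0.76, SE 0.21, adjusted p = 0.0846), and GATA1, its erythroid relative, was listed at 0 in every library.

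Of 24 partners and cofactors of the TAL1 and RUNX1 complexes, 20 were tested, 3 fell, 3 rose and 14 were not called, with a median log2 fold change of 0.02 beside -0.01 over all genes tested. Over all genes tested, 7.35% were called lower and 5.81% higher. The 3 that fell were LDB2, a relative of LDB1 (2.73-fold, adjusted p = 0.0170), the E-protein TCF4 (2.57-fold, adjusted p = 0.0359) and SSBP3, which stabilises LDB proteins (1.30-fold, limma adjusted p = 0.0368). ID1 and ID3, which sequester E-proteins and are classical BMP response genes, rose 2.73-fold (adjusted p = 0.00626) and 2.05-fold (adjusted p = 0.0258). ID1 was the most abundant gene of the list, at 789 and 644 FPKM in DMSO and 1772 and 2137 FPKM with IWP2. LMO4, a LIM-only relative of LMO2 that also binds LDB1, rose 1.91-fold, from 21.6 and 22.5 to 40.0 and 44.3 FPKM (limma adjusted p = 0.00645). SSBP3 was not called after median centring, without the variance trend or with the replicate number as a block, and TCF4 was not called without the trend. With the block 2 genes of the list were lower and 5 higher. These 6 calls also depend on the full set of libraries, since leaving out 1 library gave between 0 and 3 calls in the list, and between 8 and 9 genes had an unadjusted limma p under 0.05 in those fits.

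Several other ETS factors were far more abundant than ETV2, FLI1 or ERG. Of 24 in the list, 18 were tested, with 3 lower, 3 higher and 12 not called (median -0.08). Beside these counts, 7.35% of all genes tested were called lower and 5.81% higher. ETS1, a factor of endothelium and mesoderm, fell 2.03-fold, from 31.5 and 37.6 to 17.7 and 16.3 FPKM (adjusted p = 0.00993). ETV4, an FGF-responsive factor, fell from 60.0 and 61.0 to 36.2 and 38.6 FPKM (adjusted p = 0.00940), and ETV3 fell from 16.2 and 13.1 to 8.44 and 9.03 FPKM (adjusted p = 0.0363). The epithelial factor ELF3 rose 2.52-fold (adjusted p = 0.0307), ELF4 2.18-fold (adjusted p = 0.0293) and SPIB, known from B cells, 5.36-fold, from 0.529 and 1.29 to 5.85 and 3.89 FPKM (limma adjusted p = 0.0242). The repressor ERF was the list's most abundant gene, at 49.7 and 54.0 FPKM in DMSO and 46.5 and 57.0 FPKM with IWP2 (adjusted p = 0.974). ETV3 was not called without the variance trend or with the replicate block, where FEV and ELK3, respectively, were called instead. With 1 library left out the list had 0 to 2 calls, and 7 to 10 of its genes had an unadjusted limma p under 0.05. SPI1, the ETS factor of myeloid cells, was under 1 FPKM throughout.

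Among 23 other endothelial genes, 17 were tested, 3 fell, none rose and 14 were not called (median -0.26). The shares over all genes tested were 7.35% lower and 5.81% higher. KDR, the VEGF receptor that marks blood and vessel precursors, fell from 53.2 and 60.4 to 38.6 and 35.7 FPKM (1.53-fold, limma adjusted p = 0.0237). TEK, the angiopoietin receptor, fell from 3.53 and 3.14 to 1.44 and 1.82 FPKM (adjusted p = 0.0479), and VWF, a clotting protein stored in endothelial cells, from 1.81 and 1.29 to 0.369 and 0.378 FPKM (adjusted p = 0.0452). TEK and VWF were not called after median centring, which kept only KDR, and without the variance trend KDR was not called and CLEC14A, an endothelial lectin, was called higher. No gene of the list was called by limma without any 1 library, where 3 to 8 genes had an unadjusted p under 0.05. SOX7, a SOX factor of hemogenic precursors, measured 0.751 and 0.880 against 0.223 and 0.542 FPKM (adjusted p = 0.280). SOX17, also a definitive endoderm gene and the most abundant of the list, measured 155 and 104 against 79.7 and 94.9 FPKM (limma adjusted p = 0.167). Of the 23 genes, 9 were under 1 FPKM in all libraries (ESAM, EMCN, CLDN5, ICAM2, ROBO4, SOX7, MMRN2, S1PR1 and MECOM) and 14 reached it in at least 1. The secreted factor EGFL7 ranged from 20.2 to 24.6 FPKM, the VEGF receptor FLT1 from 10.004 to 12.9, the TGF-beta co-receptor ENG from 3.604 to 5.70 and NOS3, the endothelial nitric oxide synthase, from 2.32 to 3.82 FPKM, and none of these 4 was called. Endothelial genes were thus divided in level at day 2, with CDH5 and PECAM1 among the low ones. EGFL7, FLT1, ENG, NOS3 and the genes under 1 FPKM were named after their values were seen.

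Of 23 blood genes, 10 were tested, 3 fell, none rose and 7 were not called (median -0.28). Across all genes tested, 7.35% were called lower and 5.81% higher. The 3 blood genes that fell were GYPB, KLF1 and HHEX. GYPB, a red cell glycophorin, fell 28.4-fold, from 9.29 and 9.25 to 0.150 and 0.503 FPKM (adjusted p = 0.00162), although its reads can be shared with near-identical glycophorin genes. KLF1, an erythroid factor, measured 1.60 and 2.33 against 0.178 and 0.415 FPKM (adjusted p = 0.0282), and HHEX, a homeobox factor of blood, endothelial and endoderm precursors, 2.08 and 2.30 against 0.269 and 0.376 FPKM (limma adjusted p = 0.0125). GYPB was the gene called in every fit that left out 1 library, and the others were not. The receptor EPOR led the list in level, at 9.14 and 8.48 against 7.95 and 7.75 FPKM (adjusted p = 0.440). Of the blood genes, 14 were under 1 FPKM in all libraries, and GATA1, HBZ, HBG1 and HBA2 were listed at 0 in every one. The pan-leukocyte gene PTPRC was at 0 in 3 libraries and at 0.00906 FPKM in IWP2 replicate 1.

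**Figure D4:**
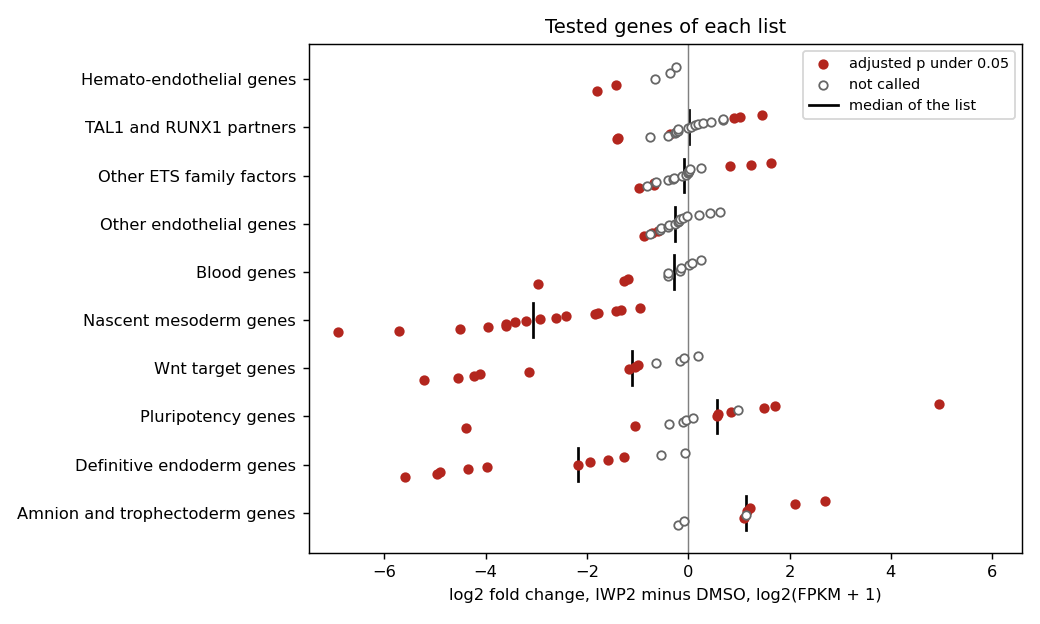
log2 fold change (IWP2 minus DMSO, log2(FPKM + 1) scale) of each tested gene by list; red points had an adjusted p under 0.05, open points did not, and black bars are list medians (none is drawn for the 10 hemato-endothelial genes). Calls among partners and ETS factors go both ways, the 3 blood and 3 endothelial calls are lower, and the nascent mesoderm genes all lie left of 0.

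Other markers were set beside the labelled cell state and treatment. Their lists were chosen with earlier results of these data known, so they are not an independent check. Of all genes tested, 7.35% were called lower and 5.81% higher. All 16 tested genes of nascent mesoderm, of 17 in the table, fell (median -3.06), among them APLNR, a receptor of early mesoderm, from 380 and 512 to 2.97 and 2.39 FPKM (adjusted p = 0.000310). MESP1, a factor of nascent mesoderm, fell from 47.6 and 74.6 to 0.244 and 0.0870 FPKM (adjusted p = 0.000648). The summed level of that list was 1406 and 1751 FPKM in DMSO and 226 and 246 FPKM with IWP2, with APLNR as its most abundant gene. Of 12 Wnt target genes 8 fell and none rose (median -1.11), including the feedback gene AXIN2, from 14.2 and 15.2 to 6.45 and 5.58 FPKM (limma adjusted p = 0.00638). SOX2, a pluripotency factor, rose from 0.193 and 0.174 to 35.6 and 36.1 FPKM (limma adjusted p = 0.000310). LYL1 and RUNX1 were thus lower in the same libraries in which mesoderm genes were lower and SOX2 was higher. In bulk libraries fewer cells of a type and less RNA per cell cannot be told apart, and the part of cell composition in the LYL1 and RUNX1 values was not tested.

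The genes of the fixed lists whose profile over the 4 libraries was nearest to that of LYL1 were the caudal homeobox gene CDX1 (distance 0.08), the T-box factor TBX6 (0.30) and BMP4 (0.42), and nearest to RUNX1 were HHEX (0.20), BMP4 (0.23) and AXIN2 (0.37). Distance is Euclidean, on log2(FPKM + 1) centred on the mean of each gene, among 123 candidate genes. All 5 of these genes fell with IWP2. With 4 libraries in 2 groups, likeness mostly records a change of similar size.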

How the data were processed

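RNA of 4 samples of H1 cells at day 2 was sequenced from TruSeq libraries. The authors deposited 1 table of FPKM per gene and library, without counts or fold changes. The submitters' processing notes name BWA, Bowtie and RSEM without versions or roles and the build hg19. The positions in the table are GRCh38: 99.8% of the 55723 gene versions shared with GENCODE 29 lie at its positions once the start is counted from 1. FPKM sums ranged from 616418 to 653850. The steps between low values gave estimates of 21100000 and 18800000 fragments for DMSO replicates 1 and 2 and 23200000 and 20200000 for IWP2, from genes with a single transcript over 3000 bases; fragments per gene are upper estimates from the longest transcript. Intervals cover the spread between libraries only. The columns of the table are named with a plus or minus sign for IWP2 and a number; the minus columns were taken as DMSO by the sign, and their replicate numbers are those of the column names. The strand setting of the counting is not given in the sources used here.

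Genes with a mean of at least 0.5 FPKM over all 4 libraries (15980) were tested with limma 3.58.1 in R 4.3.3 (eBayes with trend) on log2(FPKM + 1), IWP2 against DMSO, with Benjamini-Hochberg adjustment over all genes tested and a threshold of 0.05. A gene could reach that mean through 1 group alone. The script was tested on simulated data. The 2 libraries of a group correlated at 0.975 (DMSO) and 0.981 (IWP2) on the log2 scale. The genes described and all lists were chosen with earlier results of these data known. The text names all 10 genes, up to 4 called genes of largest change and the 2 most abundant of each list, and 9 fixed genes (KDR, GATA2, SOX7, SOX17, TCF3, LDB1, CBFB, AXIN2 and MESP1); further genes, such as SSBP3, LMO4, ETV3, SPI1 and those at 0, were named after their values were seen. One gene that the rule names is not reported here. Alternatives were the pseudocount, the filter, TPM scaling, median centring, no trend, a replicate block and leaving out each library.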

Additional observations from a re-analysis of the deposited data

How the results depend on the processing

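LYL1, RUNX1, CD34, ETV2 and LMO2 kept their direction under each alternative in which they were tested. Without a filter, 263 genes were called lower and 118 higher (1175 and 929 with it). RUNX1 was then not called (-1.43, limma adjusted p = 0.0620). LYL1 was the 1 member called, just under the threshold (limma adjusted p = 0.0496). The lists had calls for 0 partners, 1 ETS factor, 0 other endothelial genes, 1 blood gene, 5 pluripotency, 5 endoderm and 1 amnion gene. In that fit 10 partners and 6 endothelial genes had an unadjusted limma p under 0.05. More low genes were tested there; the cause was not tested further. Median centring called 1 endothelial gene. Leaving out each library gave 138 to 580 genes lower, 41 to 369 higher, 0 to 2 of the 10 genes (2 with an unadjusted p under 0.05 where 0 were called), 0 to 3 partners, 0 to 2 ETS factors, 0 other endothelial genes, 1 blood gene, 11 to 16 mesoderm, 5 to 8 Wnt target, 2 to 7 pluripotency, 4 to 8 endoderm and 0 to 4 amnion genes. The log2 fold change was then -1.84 to -1.78 for LYL1, -1.50 to -1.35 for RUNX1 and -1.20 to -0.12 for CD34. With the replicate block, LYL1 and RUNX1 stayed called (adjusted p = 0.00904 and 0.0183), 1059 genes were lower and 842 higher, and 1 endothelial gene, KDR, was called; the deviations of replicate 1 from its group mean correlated at 0.142 between the groups, and no label says that the numbers pair the libraries. A limit of 0.5 FPKM or of 1 on the TPM scale left 4 of the 6 genes not yet expressed. At these depths, 1 fragment of a 2 kb transcript is worth 0.0216 to 0.0266 FPKM, which limits TAL1, ERG and PECAM1.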

Other observations

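Genes of definitive endoderm, which arises from the same primitive streak as mesoderm, were lower with IWP2 in 9 of 11 tested cases and higher in none (median log2 fold change -2.18). Of all genes tested, 7.35% were called lower. CER1, a secreted Nodal and BMP antagonist, fell from 1612 and 2048 to 38.6 and 34.2 FPKM, GATA6, a factor of endoderm and heart precursors, from 119 and 134 to 3.52 and 3.01 FPKM, LHX1 from 31.2 and 47.3 to 0.09998 and 0.452 FPKM and GSC, an organizer homeobox gene, from 18.8 and 31.4 to 0.118 and 0.368 FPKM (limma adjusted p = 0.000310, 0.000310, 0.000985 and 0.00165). The summed endoderm list was 2050 and 2474 FPKM in DMSO and 142 and 155 FPKM with IWP2. SOX17 did not pass the test, with 155 and 104 against 79.7 and 94.9 FPKM (adjusted p = 0.167).

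Genes of amnion and trophectoderm went the other way: 5 of 8 tested rose and none fell (median 1.15). Of all genes tested, 5.81% were called higher and 7.35% lower. IGFBP3, a binding protein of insulin-like growth factors, rose from 2.18 and 1.49 to 16.4 and 18.3 FPKM, the keratin KRT7 from 0.833 and 0.864 to 5.85 and 8.22 FPKM, TFAP2A from 16.5 and 12.0 to 34.0 and 34.2 FPKM and GABRP from 0.467 and 0.455 to 2.13 and 2.40 FPKM (limma adjusted p = 0.00153, 0.00470, 0.0118 and 0.0146). GATA3, also in the list of TAL1 partners, measured 39.7 and 43.7 against 34.6 and 37.7 FPKM (adjusted p = 0.253), and TFAP2C 33.9 and 16.8 against 53.7 and 53.8 FPKM (adjusted p = 0.0830). Among 13 pluripotency genes 6 rose and 2 fell: POU5F1 rose from 751 and 571 to 1854 and 1844 FPKM and PRDM14 from 1.34 and 1.64 to 6.98 and 7.42 FPKM (limma adjusted p = 0.00559 and 0.00384). LIN28A measured 258 and 248 against 239 and 252 FPKM (adjusted p = 0.746).

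Some other Wnt target genes fell further than AXIN2 (log2 fold change -1.16), whereas others, such as NOTUM (-1.06) and TCF7 (-0.99), fell less. SP5 went from 53.2 and 47.0 to 0.379 and 0.363 FPKM, LGR5 from 21.5 and 27.8 to 0.105 and 0.0763 FPKM, DKK1 from 30.1 and 25.4 to 0.200 and 0.919 FPKM and NKD1 from 38.2 and 52.3 to 1.70 and 1.56 FPKM (limma adjusted p = 0.000310, 0.000439, 0.00149 and 0.000650). CCND1 measured 49.7 and 60.9 against 52.9 and 51.2 FPKM (adjusted p = 0.708). Of the mesoderm genes, EVX1 fell from 34.6 and 33.0 to 0.559 and 0.493 FPKM and MESP2 from 15.5 and 20.6 to 0.306 and 0.120 FPKM, whereas HAND1 fell from 234 and 322 to 101 and 119 FPKM (limma adjusted p = 0.000310, 0.000911 and 0.0126).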
